A study of Mus musculus with 34 samples.

Results

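The cell cycle and DNA replication genes described here are 40 genes, matched by symbol in a count table of 25965 entries. They are 16 genes of S phase entry and DNA synthesis (replication members) and 24 genes of the G2 and M phases (mitosis members), and the 2 lists were read apart. All 40 were found, each once. They were measured in cumulus cells (CCs), the granulosa cells that surround the oocyte, by Smart-seq2, in which cDNA primed on poly(A) tails is amplified before sequencing, with no tags that count single molecules.

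All mice were C57BL/6J (B6) females that were 8 weeks old when treatment began, and all were superovulated before collection. In the pharmacological hyperleptinemia protocol, saline (16 C, n = 3) or 100 µg of leptin per day (16 L, n = 5) was given by intraperitoneal injection for 16 days. In the diet-induced obesity protocol, mice were kept on chow diet (CD, 11% of energy from fat) or high-fat diet (HFD, 58%) for 4 weeks (n = 5 and n = 5) or for 16 weeks (n = 6 and n = 7). A further 3 libraries came from mice labelled as low weight gainers after 16 weeks of HFD. By the labels, each library came from the CCs of a single cumulus-oocyte complex of 1 mouse, so the spread between libraries holds both mouse and complex. The paper's text gives other figures for the fat content of the diets and for the CCs taken per mouse, and the labels were followed. Saline injection served as the control of leptin alone, and the 16-week CD libraries were compared with both HFD groups of that age.

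Total counts ranged from 1104611 to 13207018 per library, and a count of 0 allowed up to 3 counts, which was 0.215 to 2.76 CPM (counts per 1000000) depending on the library. That limit covers counting error only. CPM here are counts scaled by the library total and a trimmed-mean (TMM) factor over all 34 libraries. Of the 12 granulosa and cumulus markers listed, all had counts, and their summed level was 598 to 1687 CPM per library. Some libraries stood apart. Replicate 18 of 16 L had 36760 CPM of oviduct epithelium markers, against 134 to 1930 CPM in the other 16 L libraries, and only 42.4 CPM of the cumulus expansion markers. Replicate 5 of 4-week HFD had 704.9 CPM of oocyte markers, against 22.6 to 35.3 CPM in the rest of its group. On the first principal component of the 7065 most abundant entries, which held 47.0% of the variance, 16-week CD replicates 1 and 2 lay at 48.5 and 44.3, on the side of the 4-week libraries, while the other 16-week CD libraries lay at -51.0 to -18.3. Marker lists of other cells and functions were read beside the share of all entries that passed edgeR's test. In 16 L, 1 of 9 oviduct markers was higher and 1 of 2 theca and stroma markers lower, where 4.06% and 4.5% of all entries were so. Of the 9 oviduct markers, 8 were higher at an unadjusted p of 0.05, against 19.9% of all entries, with a median log2 fold change of 6.63 over the 9. The 2 theca and stroma markers tested had opposite signs, with Star at -1.58 (edgeR adjusted p 0.0394) and Dcn at 8.80 (adjusted p 0.103), and the list summed to 181 to 262 CPM in 16 C and 71.3 to 1881 CPM in 16 L. In 4-week HFD, 1 of 10 granulosa markers was higher (1.19% of all entries). In the low weight gainers against 16-week HFD, 1 of 10 granulosa markers was higher and 2 lower, 3 of 5 cumulus expansion markers were lower and 1 of 12 macrophage and neutrophil markers was higher, where 10.8% of all entries were higher and 9.93% lower. In the interaction, 1 of 11 granulosa markers was higher and 1 lower (1.74% and 1.92% of all entries). No oocyte, lymphocyte, endothelial or red blood cell marker passed in any comparison, and no marker of any list passed in the 2 comparisons with 16-week CD. Without 16 L replicate 18, where 41.8% of all entries passed, 2 of 2 lymphocyte, 2 of 13 macrophage and neutrophil, 2 of 10 granulosa and 1 of 5 oviduct markers were higher, and 2 of 5 cumulus expansion markers and Star were lower. The granulosa calls at 4 weeks and in the interaction were lost without 4-week HFD replicate 5, and those in the interaction also without 16-week CD replicates 1 and 2.

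A cell prepares to copy its DNA when CDC6 and CDT1 load the MCM2-7 helicase on replication origins, and cyclin E with CDK2 then starts S phase. PCNA clamps the polymerases to the template, while ribonucleotide reductase (RRM1 and RRM2), thymidylate synthase (TYMS) and thymidine kinase (TK1) supply deoxynucleotides. CDK1 with cyclins A and B drives entry to mitosis, kinesins and spindle proteins move the chromosomes, the spindle checkpoint delays their separation until all are attached, and the anaphase-promoting complex (APC) ends mitosis by having cyclins destroyed. Granulosa cells divide in the growing follicle and leave the cell cycle after the ovulatory surge of luteinizing hormone, when CDK inhibitors such as p27 and p21 rise.

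Replication and mitosis genes are known to carry different promoter elements: E2F sites are typical of S phase genes, and the cell cycle genes homology region (CHR) together with CCAAT boxes is typical of G2/M genes. The RefSeq promoter table of GRCm38.p6 held 34 of the 40 members, from 250 bases before to 50 bases after the start. A CHR (TTTGAA or TTCGAA, either strand) was found in 15 of 20 mitosis promoters (75.0%) and in 2 of 14 replication promoters (14.3%). It was found in 19.4% of 27025 promoters, the first full window listed for each symbol, called all promoters here. The member promoters were instead those nearest the annotated start of the gene. An E2F match (TTCCCGC or TTCGCGC or TTGCCGC or TTGGCGC, either strand) was found in 4 of 20 mitosis promoters (20.0%), 9 of 14 replication promoters (64.3%) and 9.69% of all. A CCAAT box (CCAAT, either strand) was found in 85.0% of the mitosis promoters, 64.3% of the replication promoters and 37.9% of all. All 15 mitosis promoters with a CHR also had a CCAAT box, and both were found together in 7.7% of all promoters. These are letter matches in a fixed window and not measured binding.

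Promoters of 6 members that passed the test in a comparison are printed here, so that their elements can be read beside their values. Each runs 5′ to 3′ on the gene's strand from 250 bases before to 30 bases after the RefSeq start, with CHR, CCAAT and E2F matches in capitals (matches that touch form 1 run). Rrm2 lies on the plus strand at chr12:24708004-24708283, Mcm2 on the minus strand at chr6:88898751-88899030, Mcm7 on the minus strand at chr5:138171854-138172133, Cenpa on the plus strand at chr5:30666636-30666915, Cenpe on the plus strand at chr3:135212313-135212592 and Top2a on the minus strand at chr11:99024160-99024439.
Rrm2: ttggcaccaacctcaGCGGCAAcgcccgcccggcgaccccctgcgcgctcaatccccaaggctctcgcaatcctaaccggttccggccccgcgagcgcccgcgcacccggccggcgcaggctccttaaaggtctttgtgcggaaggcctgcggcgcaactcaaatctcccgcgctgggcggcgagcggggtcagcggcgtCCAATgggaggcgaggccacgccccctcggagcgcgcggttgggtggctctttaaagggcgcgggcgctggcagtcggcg
Mcm2: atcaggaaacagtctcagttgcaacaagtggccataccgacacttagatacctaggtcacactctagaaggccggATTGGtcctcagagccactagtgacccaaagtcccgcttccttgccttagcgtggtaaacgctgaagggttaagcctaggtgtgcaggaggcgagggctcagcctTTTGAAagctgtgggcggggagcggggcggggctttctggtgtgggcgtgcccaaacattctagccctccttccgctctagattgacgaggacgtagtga
Mcm7: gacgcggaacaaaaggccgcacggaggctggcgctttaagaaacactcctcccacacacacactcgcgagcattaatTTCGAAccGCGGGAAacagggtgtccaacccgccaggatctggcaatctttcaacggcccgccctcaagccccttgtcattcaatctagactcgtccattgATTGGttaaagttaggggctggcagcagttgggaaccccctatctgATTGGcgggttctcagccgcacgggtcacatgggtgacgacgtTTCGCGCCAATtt
Cenpa: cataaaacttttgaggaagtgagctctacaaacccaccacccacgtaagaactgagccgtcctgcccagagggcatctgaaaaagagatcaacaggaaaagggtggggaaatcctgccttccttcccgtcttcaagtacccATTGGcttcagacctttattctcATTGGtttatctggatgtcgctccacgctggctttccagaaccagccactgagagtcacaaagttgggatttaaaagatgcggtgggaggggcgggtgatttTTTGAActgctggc
Cenpe: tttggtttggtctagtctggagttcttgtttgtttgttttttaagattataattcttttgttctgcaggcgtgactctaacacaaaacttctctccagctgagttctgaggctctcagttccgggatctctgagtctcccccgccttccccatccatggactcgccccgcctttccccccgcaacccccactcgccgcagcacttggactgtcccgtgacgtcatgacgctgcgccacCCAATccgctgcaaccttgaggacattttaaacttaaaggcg
Top2a: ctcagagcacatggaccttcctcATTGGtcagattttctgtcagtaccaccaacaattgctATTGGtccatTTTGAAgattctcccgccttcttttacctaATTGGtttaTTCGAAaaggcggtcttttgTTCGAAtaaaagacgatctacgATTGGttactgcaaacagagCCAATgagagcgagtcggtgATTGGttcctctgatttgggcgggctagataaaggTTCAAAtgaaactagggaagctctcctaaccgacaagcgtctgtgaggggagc
Over the full 300 bases, Top2a held 4 CHR and 6 CCAAT matches and no E2F match, and Cenpa 1 CHR and 2 CCAAT matches. Mcm2 was 1 of the 2 replication promoters with a CHR, with 1 CCAAT and no E2F match, and Mcm7 was the other, with 3 CCAAT and 3 E2F matches. Rrm2 held 1 CCAAT and 1 E2F match. Cenpe had no CHR and 1 CCAAT match, although it encodes the kinesin that carries chromosomes to the spindle equator and belongs to the mitosis members. Other members that passed had promoters that are not printed. Of these, Mad2l1 and Nusap1 had no CHR, CCAAT or E2F match. Bub1b had 2 CHR and 1 CCAAT match and Kif23 had 1 of each, both without an E2F match.

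The members were present throughout the libraries. Of the 40, 36 had a count in every library, including all 24 mitosis members. The exceptions were Mcm4, Mcm5 and Cdt1, each with 1 library at 0, and Cdc6, with 12. Per kilobase of the longest coding transcript, the highest mean levels over all libraries were those of Cenpa (centromeric histone H3 variant, 50.1 CPM per kb), Ccnb2 (cyclin B2, 49.4) and Ccnb1 (cyclin B1, 28.5). The lowest were those of Mcm5 (2.22), Ccne1 (cyclin E1, 1.35) and the origin-loading factor Cdc6 (0.147). The median member lay at 5.26 CPM per kb for replication and at 8.70 for mitosis, against 2.08 over 20166 entries with a count. Mki67, the gene of the proliferation antigen Ki-67, was at the 57.0th percentile of these entries, Cdk1 at the 77.2th, Top2a at the 82.5th and Rrm2 at the 86.3th.

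The 4-week CD libraries had lower levels than the 16-week CD libraries, which is a description, since no comparison of the design sets these ages against each other directly. The summed replication members were at 227, 241, 236, 251 and 324 CPM in 4-week CD (256 ± 38.9, SD, n = 5), and at 434 to 575 CPM in 16-week CD (502 ± 56.0, n = 6). The summed mitosis members were at 357 to 791 CPM in 4-week CD (578 ± 205) and at 1106 to 1531 CPM in 16-week CD (1270 ± 155). The 2 CD groups did not overlap in either sum with TMM scaling. Per 1000000 total counts, the mitosis sums of 470.3 to 983 and 1069 to 1787 did not overlap either, while the replication sums of 268 to 402 and 368 to 592 did. In the leptin protocol the replication sum was 449.6 to 497 CPM in 16 C and 217 to 359 CPM in 16 L, without overlap, and the mitosis sum was 781 to 1100.0 CPM in 16 C and 341 to 1103 CPM in 16 L, with overlap. The separation of the replication sums depended on the scaling, since per 1000000 total counts they were 311 to 331 in 16 C and 284 to 422 in 16 L and overlapped. The replication sum reached 300.1 to 412 CPM in 4-week HFD, 439.9 to 615 CPM in 16-week HFD and 573 to 642 CPM in the low weight gainers. The corresponding mitosis sums were 693 to 1095, 1020.0 to 1548 and 1160.0 to 1264 CPM. By single genes, 20 of 40 members had their lowest group mean in 4-week CD, while 14 had their highest in 16-week HFD (12 of them mitosis members) and 14 in the low weight gainers (7 and 7). The same ranking was not counted over all entries, so these counts cannot be read as particular to the members. TMM factors were 1.115 to 1.394 in 4-week CD and 0.723 to 0.891 in 16-week HFD. In pools of cells, a smaller share of dividing cells and less RNA per dividing cell cannot be told apart.

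**Figure D1:**
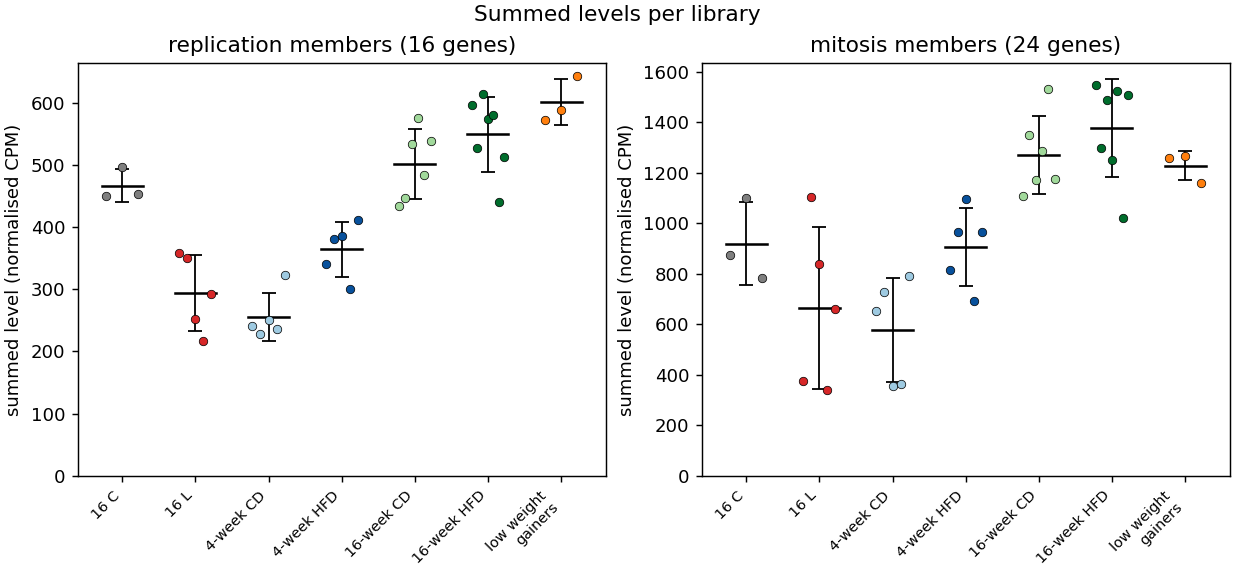
Summed normalised CPM of the 16 replication members (left) and the 24 mitosis members (right) in each of the 34 libraries by group, with 1 point per library and lines for the mean ± SD. The replication sum of 16 L (217 to 359 CPM) lay below that of 16 C (449.6 to 497) with TMM scaling but not per total count, and the 4-week CD libraries held the lowest group mean in both panels.

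The first question was whether leptin injection changed these genes in CCs relative to saline. In 16 L against 16 C, 2 of the 38 members tested fell and none rose at an adjusted p of 0.05 in edgeR's quasi-likelihood test (Benjamini-Hochberg over all entries), where 8.56% of the 11723 entries passed, 4.06% higher and 4.5% lower. The members that fell were Rrm2, the regulated subunit of ribonucleotide reductase, and Cenpa, the histone that marks centromeres. At an unadjusted p of 0.05, 1 member was higher and 9 were lower, against 19.9% and 12.5% of all entries. The median log2 fold change was -0.47 over the replication members and -0.42 over the mitosis members, against 0.27 over all entries, and 12 of 38 members were above 0, against 58.8% of all entries. The count of calls depended on the tool and on single libraries. It was 0 without any single 16 C library or 16 L replicate 20, 21 or 23, where 0.235% to 1.28% of all entries passed. Without 16 L replicate 19 it was 7, where 14.4% of all entries passed. DESeq2 called 7 of 38 members (1 higher and 6 lower), where it called 23.7% of all entries, and limma-voom 18 (4 higher and 14 lower), where it called 64.4%. Without 16 L replicate 18, edgeR called 9 members, of which Ccna2 and Mcm7 were higher and Rrm2, Cenpa, Tyms, Cdk2, Ccne2, Ccnb2 and Pcna lower, where 41.8% of all entries passed.

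Rrm2 (chr12:24708241-24714146, plus strand) was at 60.7, 118 and 85.8 CPM in 16 C and at 34.9, 17.6, 8.73, 4.83 and 19.6 CPM in 16 L. The 16 L libraries all lay below the lowest 16 C library. Its log2 fold change was -2.34 (SE 0.56), with an adjusted p of 0.0379 by edgeR's quasi-likelihood test. Without 16 L replicate 18 it was -2.86 with an adjusted p of 0.000965. Cenpa (chr5:30666777-30674827, plus strand) was at 86.4, 102 and 63.3 CPM in 16 C and at 28.2, 43.5, 28.8, 15.2 and 41.9 CPM in 16 L, again without overlap. Its log2 fold change was -1.42 (SE 0.38, edgeR adjusted p 0.0488), and -1.46 without replicate 18 (adjusted p 0.00991). Both calls were lost when any single 16 C library or 16 L replicate 20, 21 or 23 was left out, with adjusted p of up to 0.142 for Rrm2 and 0.179 for Cenpa. In 4-week CD, of the diet protocol, Rrm2 was at 6.56 to 26.9 and Cenpa at 19.1 to 56.3 CPM, overlapping 16 L and not 16 C. In 16-week CD they were at 20.3 to 111 and 60.7 to 157 CPM, where both overlapped 16 C and Rrm2 also 16 L.

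Among the other replication members, the helicase subunit gene Mcm7 had values in the opposite direction. It was at 14.4, 19.9 and 16.6 CPM in 16 C and at 20.5, 42.6, 51.5, 47.6 and 49.4 CPM in 16 L, where replicate 18 held the lowest value and the groups did not overlap. Its log2 fold change was 1.29 (SE 0.39, edgeR adjusted p 0.0627), and 1.37 without that replicate (adjusted p 0.00327), and 12.6% of its exon bases are shared with other genes, mostly Ap4m1 on the opposite strand, whose reads cannot be told apart in these unstranded libraries. Tyms was at 118, 65.0 and 117 CPM in 16 C, at 71.9 CPM in 16 L replicate 18 and at 24.1 to 30.8 CPM in the other 4, a log2 fold change of -1.48 (adjusted p 0.0664) that was -2.0 without replicate 18 (adjusted p 0.000448). Cdk2, the kinase of S phase entry, was at 44.7 to 55.4 CPM in 16 C and 20.1 to 32.5 CPM in 16 L, without overlap (log2 fold change -0.94, edgeR adjusted p 0.0697). Its partner gene Ccne2, which shares 17.4% of its exon bases with Ints8, was at 10.1 to 31.8 and 5.52 to 17.1 CPM (-1.35, adjusted p 0.121). The origin-loading gene Cdt1 was at 0.773 to 3.32 CPM in 16 C and 0.69 to 6.42 CPM in 16 L, the second most positive change among the members (0.98, adjusted p 0.404). Of the helicase genes, Mcm6 was at 31.7 to 44.0 and 37.6 to 59.8 CPM (0.29, edgeR adjusted p 0.524), and Mcm2 at 2.32 to 43.4 and 6.99 to 12.5 CPM (-0.96, adjusted p 0.413). The clamp gene Pcna was at 39.4 to 44.0 and 20.1 to 42.3 CPM (-0.52, adjusted p 0.321).

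Ccne1 and Cdc6 had too few counts for the fit. Ccne1 had 38 counts in all 16 C libraries together and 29 in the 16 L libraries, a difference of mean log2(RPM + 1) of -0.10 with p = 0.893 in a two-sided exact permutation test over 56 splits, where RPM are scaled by the library total alone. Cdc6 had 5 and 10 counts (exact permutation p = 0.929).

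Among the mitosis members, cyclin B and its kinase were lower in most 16 L libraries without passing the threshold. Ccnb2 was at 56.9 to 119 CPM in 16 C and 16.3 to 55.4 CPM in 16 L, without overlap (log2 fold change -1.32, SE 0.45, edgeR adjusted p 0.0867). Ccnb1 was at 41.7 to 73.1 and 8.97 to 53.5 CPM (-1.16, adjusted p 0.153). Cdk1, the mitotic kinase, was at 65.2, 38.7 and 55.6 CPM in 16 C and at 15.7, 63.8, 12.2, 8.97 and 16.2 CPM in 16 L, so that replicate 19 alone lay in the 16 C range (-1.17, edgeR adjusted p 0.209). Ect2, the exchange factor that starts cytokinesis, had the second most negative change (-2.0, SE 0.74, adjusted p 0.102) with 37.2 to 147 CPM in 16 C and 5.52 to 53.4 CPM in 16 L. Nusap1, a spindle microtubule protein, and Cdc20, the activator of the APC, did not overlap between the groups either, with 47.9 to 53.3 against 9.66 to 38.4 CPM and 44.4 to 47.8 against 2.07 to 43.3 CPM.

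Other genes of cycling cells had higher values in most of the same libraries. Mki67 was at 18.2 to 20.5 CPM in 16 C and at 10.3, 33.8, 57.2, 26.9 and 30.4 CPM in 16 L (log2 fold change 0.69, edgeR adjusted p 0.348). Top2a, topoisomerase II alpha, was at 63.7 to 75.6 and 37.1 to 195 CPM (0.61, adjusted p 0.439). Ccna2, cyclin A2, was at 31.1 to 46.8 and 24.0 to 99.5 CPM (0.84, adjusted p 0.233), and 12.5% of its exon bases lie under Exosc9. In all 3 genes replicate 18 was the lowest 16 L library and lay below 16 C, whereas most others lay above. In total, 1 member was higher and 6 were lower without overlap, where 12.2% and 11.2% of all entries were so.

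The direction of these changes depended on the scaling, since the median of all entries was 0.27 after TMM scaling and 1.08 with total counts alone. With total counts, 25 of 38 members were above 0, and Pcna changed sign (0.25), but 12 of 38 lay above the median of all entries under both scalings. Rrm2 fell under both (-1.60, edgeR adjusted p 0.0314, with total counts), while Cenpa did not pass with total counts (-0.58, adjusted p 0.275), and Ccna2, Mcm6 and Mcm7 then passed as higher, where 34.4% of all entries passed, 31.2% higher. Summed levels of markers of other cells overlapped between the groups in the 4 lists given next, with the highest library in 16 L. The sum was 0 to 0.948 CPM in 16 C and 0.8 to 38.0 CPM in 16 L for 8 lymphocyte markers, of which Cd8a was at 0 in every library. It was 1.55 to 30.2 and 3.10 to 11270 CPM for the red blood cell markers, 204 to 228 and 134 to 36760 CPM for 12 oviduct markers, and 140.2 to 845 and 92.2 to 1554 CPM for the macrophage and neutrophil markers, of which Ly6g and Mpo were at 0 throughout. The 8 cumulus expansion markers summed to 1650 to 2550 CPM in 16 C and 42.4 to 957 CPM in 16 L, without overlap, but overlapped per 1000000 total counts (1216 to 1685 and 36.98 to 1262). Their part in the changes of the members was not tested.

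Genes around the G1/S boundary were read from a list of 17 cyclins, kinases and inhibitors, of which 15 were tested, with 1 higher and 4 lower in 16 L, where 4.06% of all entries were higher and 4.5% lower. Cdkn1b, which encodes the CDK inhibitor p27, was at 4903, 11890 and 8317 CPM in 16 C and at 406.5 to 691 CPM in 16 L, far below (log2 fold change -4.07, SE 0.52, edgeR adjusted p 0.00825). Cdkn1a, which encodes p21, was at 536 to 642 and 96.7 to 275 CPM (-1.87, edgeR adjusted p 0.027). Ccnd3, cyclin D3, was at 6.18 to 9.60 CPM in 16 C and 27.6 to 52.4 CPM in 16 L (2.35, adjusted p 0.0166). None of these 3 genes overlapped between 16 C and 16 L. In 4-week CD, of the diet protocol, Cdkn1b was at 470.0 to 1218, Cdkn1a at 114 to 201 and Ccnd3 at 36.4 to 57.2 CPM. These ranges overlapped 16 L and not 16 C. In 16-week CD they were at 256 to 7401, 143 to 566 and 4.42 to 52.8 CPM, which overlapped both. Levels were not tested between the protocols. Ccnd2 was at 81.8 to 108 and 32.5 to 102 CPM (-0.55, edgeR adjusted p 0.366). Ccnd1 was at 1.52 to 3.67 CPM in 16 C and at 339, 1.90, 31.9, 51.0 and 12.5 CPM in 16 L, highest in replicate 18 (5.03, adjusted p 0.0736, and 2.99 with an adjusted p of 0.0331 without that replicate), and Cdkn1c was not tested, with 38.8 CPM in that replicate and at most 2.76 CPM in the other 16 C and 16 L libraries.

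Among 19 tested pocket proteins and transcription factors of the cell cycle, 2 were higher and 1 was lower in 16 L. This list and those after it are to be read against 4.06% higher and 4.5% lower of all entries. Rb1, the retinoblastoma protein that holds E2F factors inactive, was at 16.7 to 22.3 CPM in 16 C and 29.1 to 154 CPM in 16 L, without overlap (2.17, edgeR adjusted p 0.0423). It was at 52.4 to 140.0 CPM in 4-week CD and 22.98 to 89.7 CPM in 16-week CD. E2f2 rose by 2.24 (adjusted p 0.0387) and Myc fell by 2.65 on the log2 scale (adjusted p 0.027). Among 39 other replication fork and licensing genes, 1 was higher and 1 lower, Pold1 of DNA polymerase delta (1.85, edgeR adjusted p 0.0298) and Rfc4 of the clamp loader (-1.57, adjusted p 0.0487). Among 54 other spindle, checkpoint and APC genes, 1 was higher and 3 were lower. They included the kinetochore gene Spc24 (-1.93, edgeR adjusted p 0.0168), the CDK1-activating phosphatase gene Cdc25c (-3.15, adjusted p 0.034) and Pkmyt1, which encodes an inhibitory kinase of CDK1 (2.89, adjusted p 0.0413). Without 16 L replicate 18, where 41.8% of all entries passed, 2 of 15 G1 genes were higher and 6 lower, as were 3 and 4 of 18 pocket and transcription factor genes, 1 and 10 of 36 fork genes and 5 and 10 of 53 spindle genes. Cdkn1b (-4.31), Cdkn1a (-1.81), Ccnd3 (2.18) and Rb1 (2.31) then had edgeR adjusted p of 8.59e-05, 0.00152, 0.00176 and 0.00115.

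**Figure D2:**
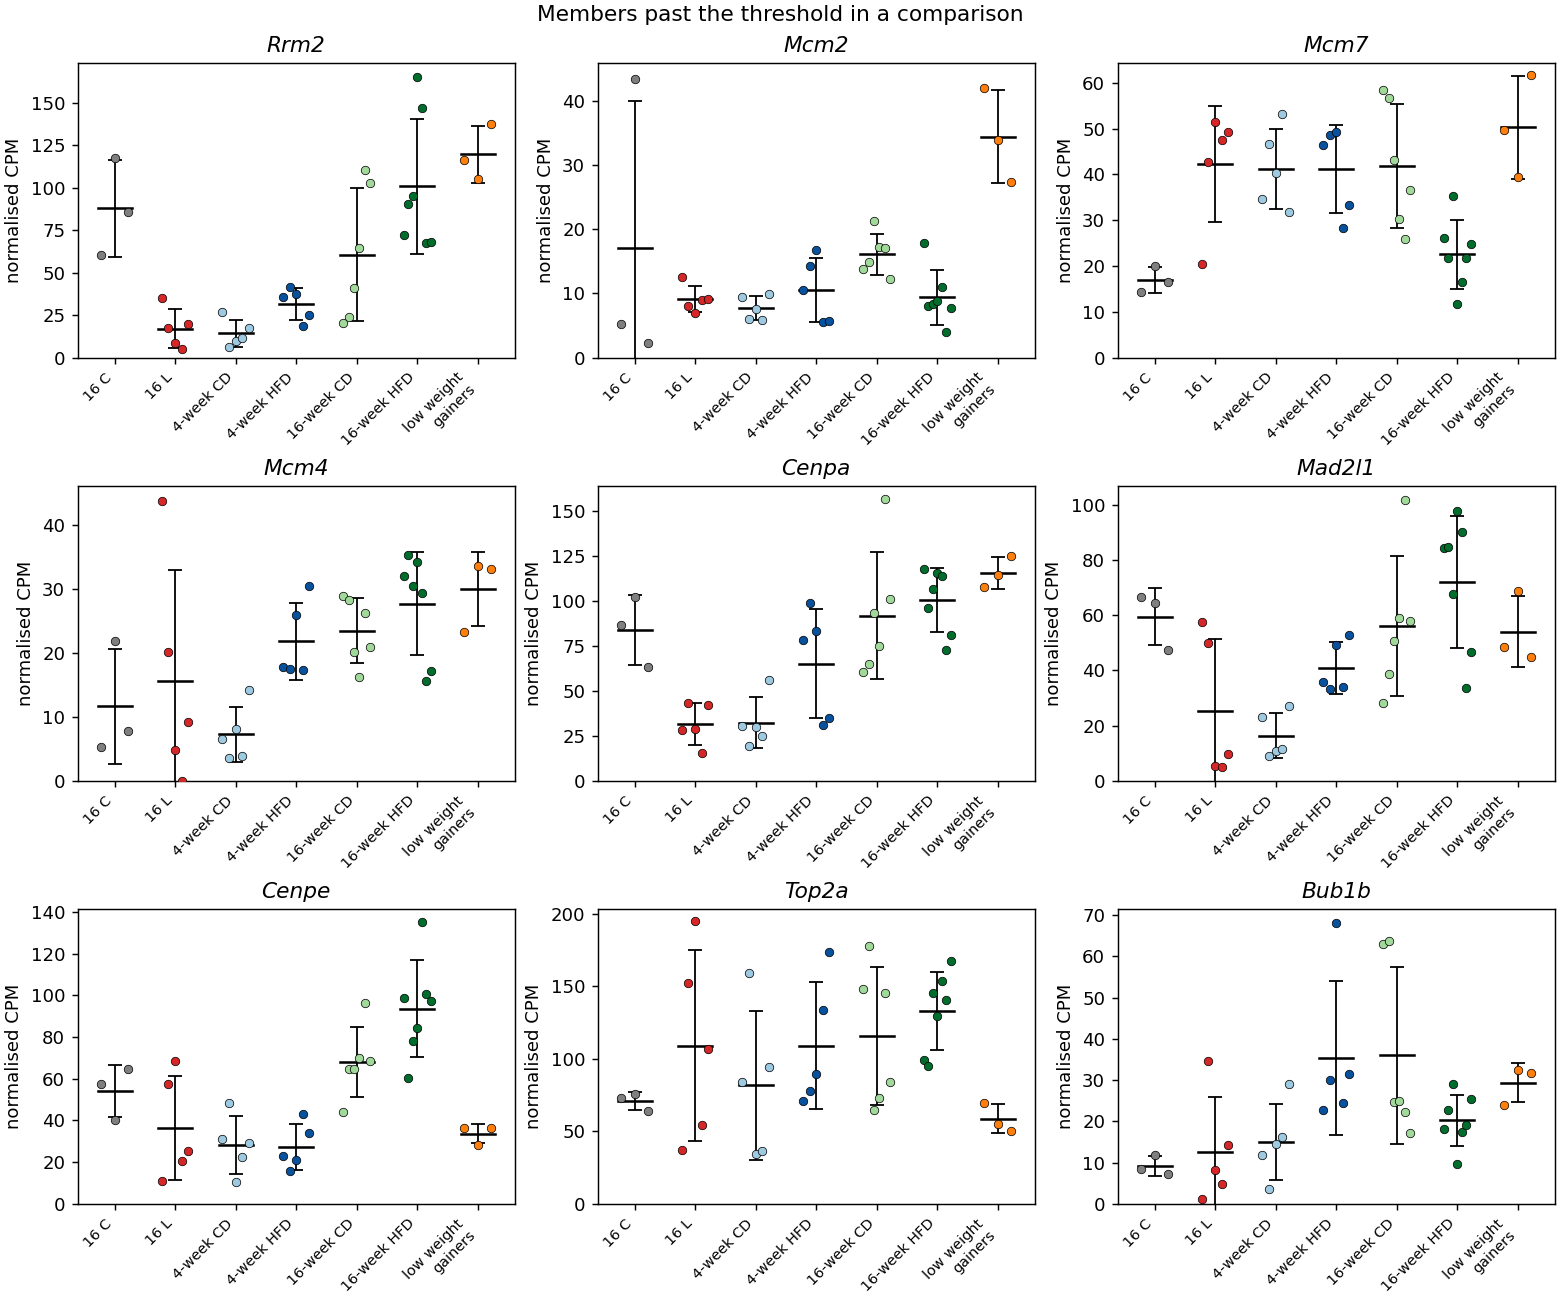
Normalised CPM of 9 members that passed the threshold in a comparison, in each of the 34 libraries by group, with 1 point per library and lines for the mean ± SD (cut off at 0). Rrm2 and Cenpa lay lower in every 16 L library than in 16 C, Mcm4 and Mad2l1 lay higher in every 4-week HFD library than in 4-week CD, and Mcm2 stood highest in the low weight gainers apart from 1 library of 16 C at 43.4 CPM.

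The next question was whether 4 weeks of HFD changed the same genes. In 4-week HFD against 4-week CD, 2 of 39 members rose and none fell by edgeR's quasi-likelihood test at an adjusted p of 0.05, where 4.26% of the 11727 entries passed, 1.19% higher and 3.06% lower. They were Mcm4, a subunit of the replicative helicase, and Mad2l1, the checkpoint protein MAD2 that restrains the APC. At an unadjusted p of 0.05, 16 members were higher (4 replication and 12 mitosis members) and 1 was lower, against 10.9% and 13.4% of all entries. The median log2 fold change was 0.41 for replication and 0.81 for mitosis members, against -0.01 over all entries, and 33 of 39 were above 0, against 49.3% of all entries. DESeq2 called 10 of 38 members, all higher, where it called 4.47% of all entries higher and 6.76% lower. Limma-voom called 22 of 39, all higher, against 16.5% higher and 18% lower of all entries.

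Mcm4 (chr16:15623897-15637400, minus strand) was at 6.52, 3.58, 8.17, 3.93 and 14.2 CPM in 4-week CD and at 17.8, 17.5, 25.95, 17.4 and 30.4 CPM in 4-week HFD. The groups did not overlap. Its log2 fold change was 1.52 (SE 0.34, edgeR adjusted p 0.0281). Mad2l1 (chr6:66535390-66541033, plus strand) was at 22.97, 8.95, 11.0, 11.4 and 27.3 CPM in 4-week CD and at 35.6, 33.2, 49.2, 33.8 and 52.9 CPM in 4-week HFD, also without overlap (1.29, SE 0.30, adjusted p 0.0321). Without 4-week HFD replicate 5, which carried the oocyte transcripts, the values were 1.47 (adjusted p 0.0656) and 1.23 (adjusted p 0.0706), and 0 members passed, where 0.184% of all entries did. Each call held in 2 of 10 fits that left out 1 library. Without 4-week CD replicate 11, whose replication sum was the highest of its group, 11 members passed, all higher, among them Cdk1, Ccnb1, Cdc20, Bub1b, Plk1 and Rrm1, where 14.4% of all entries passed, 6.37% higher and 8.05% lower.

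Among the mitosis members, Mad2l1 alone passed. Ccnb1 was at 27.2, 8.35, 14.3, 6.68 and 49.5 CPM in 4-week CD and at 75.4, 80.9, 135, 28.7 and 46.1 CPM in 4-week HFD. The groups overlapped through CD replicate 11 and HFD replicates 13 and 14. It had the largest log2 fold change of the members (1.73, SE 0.48) with an edgeR adjusted p of 0.0527. Cdk1 was at 2.98 to 49.8 and 31.6 to 95.4 CPM (1.44, adjusted p 0.0789). Kif11, the kinesin that pushes the spindle poles apart, and Ect2 had log2 fold changes of 1.4 and 1.01 (edgeR adjusted p 0.0703 and 0.0561), and Ect2 did not overlap between the groups (9.55 to 27.1 and 29.4 to 50.1 CPM). Top2a was at 34.1 to 159 and 70.7 to 174 CPM (0.42, adjusted p 0.525), Ccna2 at 33.5 to 107 and 35.3 to 67.4 CPM (-0.16, adjusted p 0.799), and Mki67 at 21.5 to 60.3 and 27.1 to 32.0 CPM. The log2 fold change of Mki67 was -0.28 (edgeR adjusted p 0.5258), the second most negative change.

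Among the replication members, Pcna was at 16.1 to 34.1 CPM in 4-week CD and 35.6 to 70.2 CPM in 4-week HFD, without overlap (0.78, edgeR adjusted p 0.0871). Rrm2 was at 6.56 to 26.9 and 18.9 to 41.3 CPM (1.07, adjusted p 0.0768). The thymidine kinase gene Tk1 had the most negative change, with 5.03, 17.3, 13.7, 22.01 and 6.27 CPM in 4-week CD and 7.42, 8.97, 8.16, 5.02 and 3.01 CPM in 4-week HFD, which overlapped (-1.0, adjusted p 0.169). Rrm1, the large subunit of ribonucleotide reductase, and Cdt1 had log2 fold changes of 0.92 and 0.81 (edgeR adjusted p 0.103 and 0.228). Mcm2 was at 5.90 to 9.86 and 5.48 to 16.7 CPM (0.37, edgeR adjusted p 0.517), Mcm6 at 23.2 to 39.98 and 32.4 to 51.4 CPM (0.41, adjusted p 0.269) and Tyms at 14.9 to 31.6 and 20.3 to 41.8 CPM (0.23, adjusted p 0.615). Cdk2 (0.07), Ccne2 (0.21) and Ccne1 (0.42) had edgeR adjusted p of 0.888, 0.681 and 0.565, with Ccne1 at 0.597 to 2.19 and 1.53 to 3.77 CPM. Cdc6 had 14 counts in CD and 43 in HFD (exact permutation p = 0.786, two-sided, over 252 splits).

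Without overlap, 4 members were higher and 0 lower, against 2.87% and 3.74% of all entries (6.62% in either direction). Of the genes outside the 40, 4 of 55 other spindle, checkpoint and APC genes passed, all higher, where 1.19% of all entries were higher. They included the spindle protein gene Ckap2 (1.52, edgeR adjusted p 0.0281), the kinesin gene Kif18a (1.35, adjusted p 0.0388) and Wee1, the kinase that holds CDK1 inactive (1.62, adjusted p 0.0391). Without 4-week HFD replicate 5 none of the 55 passed, where 0.184% of all entries did. The log2 fold changes of these 3 were then 1.44, 1.32 and 1.66 (edgeR adjusted p 0.0671, 0.0826 and 0.0699). In edgeR's test 0 of 15 G1 genes, 0 of 20 pocket and transcription factor genes and 0 of 42 fork and licensing genes passed. At an unadjusted p of 0.05 there were 2, 2 and 9, against 24.3% of all entries in either direction. Cdkn1b was at 470.0 to 1218 CPM in 4-week CD and 319 to 937 CPM in 4-week HFD (-0.25, edgeR adjusted p 0.686), Cdkn1a at 114 to 201 and 123 to 167 CPM, Ccnd2 at 29.5 to 77.6 and 26.1 to 41.6 CPM, and Ccnd3 at 36.4 to 57.2 and 29.4 to 39.8 CPM. Rb1 was at 52.4 to 140.0 and 59.9 to 122 CPM, Ccnd1 at 1.18 to 2.58 and 1.15 to 3.28 CPM, and Cdkn1c at no more than 0.996 CPM in either. Granulosa markers summed to 598 to 920 and 671 to 804 CPM and cumulus expansion markers to 785 to 1615 and 1148 to 1936 CPM in 4-week CD and 4-week HFD, and their part was not tested.

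**Figure D3:**
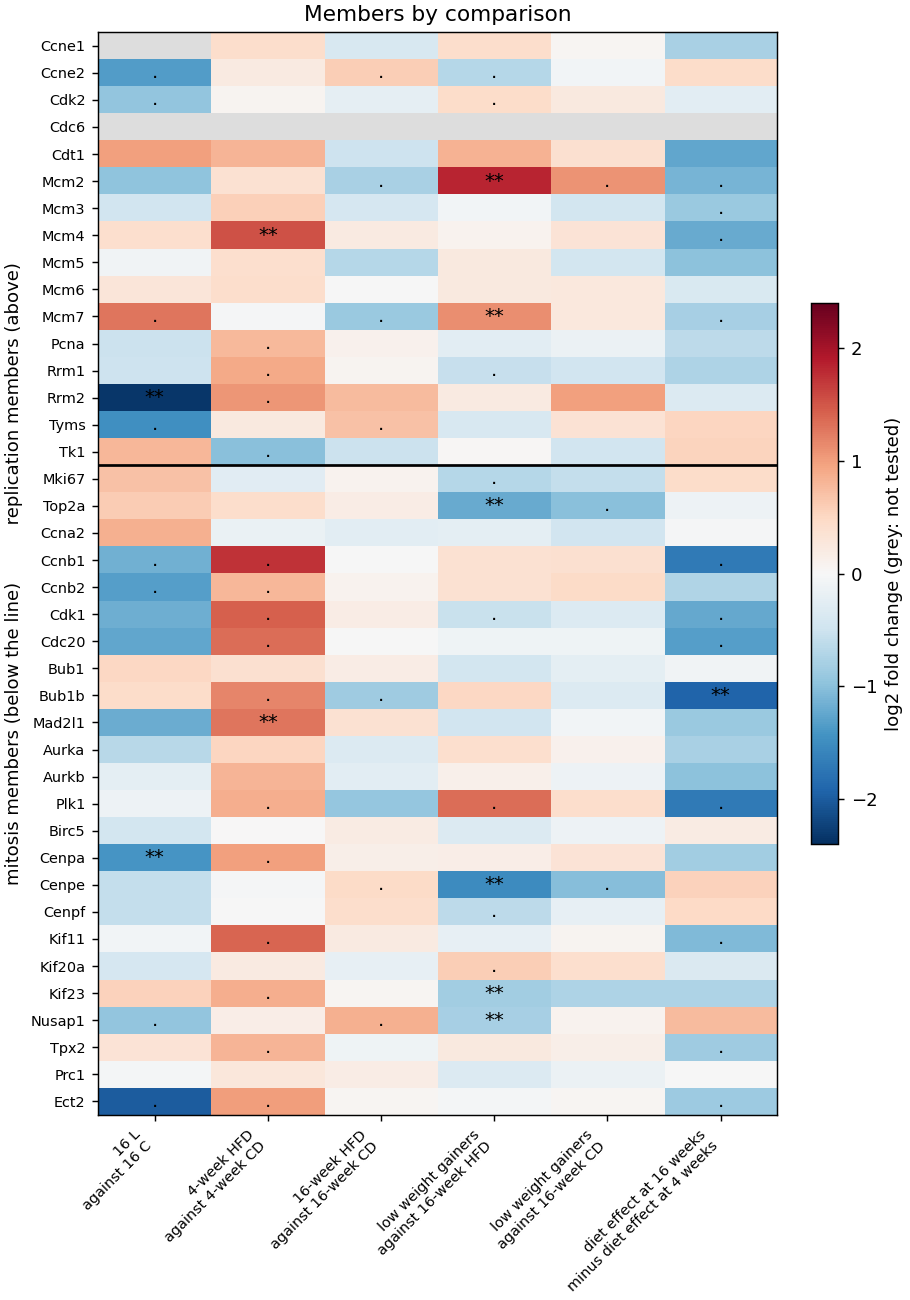
Log2 fold changes of the 40 members in the 6 comparisons, replication members above the line and mitosis members below it. Double asterisks mark an edgeR adjusted p under 0.05, dots an unadjusted p under 0.05 and grey cells members that were not tested, and 16 members were higher at an unadjusted p at 4 weeks.

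The same comparison was made after 16 weeks of diet. In 16-week HFD against 16-week CD, 0 of 39 members passed edgeR's quasi-likelihood test, where 0.0276% of the 10861 entries did, 0.00921% higher and 0.0184% lower. At an unadjusted p of 0.05, 4 members were higher and 3 lower, against 8% and 17.3% of all entries. DESeq2 called 3 members and limma-voom 0, where they called 9.72% and 0.046% of all entries. The median log2 fold change was -0.22 for the replication members and 0.08 for the mitosis members, against -0.05 over all entries.

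Tyms was the member whose groups did not overlap, with 31.3, 37.3, 76.4, 73.4, 78.4 and 69.7 CPM in 16-week CD and 83.5, 104.5 and 109 CPM as the lowest, the median and the highest value in 16-week HFD. Its 2 lowest values were those of CD replicates 1 and 2. The log2 fold change was 0.70 (SE 0.22, edgeR adjusted p 0.0793). Of all entries, 0.497% were higher and 0.497% lower without overlap. Nusap1, with the most positive change, was at 22.5 to 49.1 CPM in 16-week CD and at 36.8, 64.2 and 67.8 CPM in HFD (0.85, SE 0.22, adjusted p 0.0654), and Rrm2 the second, at 20.3 to 111 and 67.6 to 165 CPM (0.75, adjusted p 0.219). Ccne2 was at 7.22 to 18.6 and 15.9 to 28.7 CPM (0.59, edgeR adjusted p 0.178).

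Plk1, a mitotic kinase, and the helicase gene Mcm7 had the most negative changes, followed by Bub1b (-0.85) and Mcm2. Plk1 was at 5.52 to 36.1 CPM in CD and 2.00 to 22.6 CPM in HFD (-0.93, edgeR adjusted p 0.255). Mcm7 was at 58.3, 56.7, 43.1, 30.3, 25.95 and 36.6 CPM in CD, highest in replicates 1 and 2, and at 11.7, 21.8 and 35.4 CPM in HFD (-0.90, adjusted p 0.0716). Mcm2 was at 12.2 to 21.2 CPM in CD and at 4.04, 8.35 and 17.8 CPM in HFD (-0.78, adjusted p 0.125). Of the fixed genes of the cycle, Cdk1 (0.18), Top2a (0.18), Mki67 (0.08), Pcna (0.10), Mcm6 (-0.01) and Ccnb1 (-0.01) had log2 fold changes near 0. Ccna2 (-0.25), Cdk2 (-0.22) and Ccne1 (-0.38) were below 0, with edgeR adjusted p of 0.469, 0.523 and 0.617. Cdk1 was at 59.8 to 96.2 and 52.3 to 120.0 CPM, Top2a at 64.5 to 178 and 95.1 to 167 CPM, Mki67 at 30.2 to 55.7 and 27.8 to 58.5 CPM, and Ccnb1 at 74.3 to 143 and 49.6 to 133 CPM.

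With CD replicates 1 and 2 left out, 0 members and 0 of the surrounding genes passed, where 0.00909% of all entries did. Without CD replicate 9, 4 of 39 members passed, with Tyms, Nusap1 and Cenpf higher and Mcm7 lower, where 20.5% of all entries passed. With total counts in place of TMM scaling, the median of all entries moved from -0.05 to -0.40, and 7 of 39 members were above 0 instead of 21, while 24 lay above the median of all entries under both. In the surrounding lists 0 of 14 G1, 0 of 17 pocket and transcription factor, 0 of 41 fork and 0 of 53 spindle genes passed in edgeR, where 0.0276% of all entries did. At an unadjusted p of 0.05 there were 2, 3, 7 and 12, against 25.3% of all entries in either direction. Cdkn1b ranged widely in both groups, at 368, 411, 256, 259, 7401 and 3205 CPM in CD and at 389 to 6762 CPM in HFD (0.77, edgeR adjusted p 0.536). The 2 lowest CD values were those of replicates 5 and 8 and not those of replicates 1 and 2. Cdkn1a was at 143 to 566 and 345 to 667 CPM (0.34, edgeR adjusted p 0.5005), Ccnd2 at 70.7 to 166 and 81.6 to 149 CPM, Ccnd3 at 4.42 to 52.8 and 4.34 to 15.2 CPM (-1.36, adjusted p 0.0965) and Rb1 at 22.98 to 89.7 and 23.9 to 44.0 CPM (-0.79, edgeR adjusted p 0.109). Ccnd1 was at 0 to 3.59 and 0.777 to 5.00 CPM and Cdkn1c at no more than 0.976 CPM, and neither was tested. Cdc6 had 23 counts in CD and 20 in HFD (exact permutation p = 0.814, two-sided, over 1716 splits).

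A further comparison set the mice that gained little weight on 16 weeks of HFD against the other 16-week HFD mice. Of 39 members, 2 rose and 4 fell by edgeR's quasi-likelihood test at an adjusted p of 0.05. Of the 11258 entries, 20.7% passed, 10.8% higher and 9.93% lower. In this fit the members' share did not exceed that of all entries. DESeq2 called 9 members and limma-voom 12, where they called 25.3% and 29.2% of all entries. The members that rose were replication members of the helicase, Mcm2 and Mcm7, and those that fell were mitosis members, Cenpe, Top2a, Kif23 and Nusap1. At an unadjusted p of 0.05, 5 were higher and 9 lower, against 17.8% and 18.5% of all entries. The median log2 fold change was 0.21 for replication and -0.21 for mitosis members, against -0.03 over all entries. The low weight gainers were 3 libraries, and the 16-week HFD libraries are shared with the preceding comparison.

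Mcm2 (chr6:88883475-88898780, minus strand) was at 17.8, 8.01, 8.35, 8.78, 11.0, 4.04 and 7.77 CPM in 16-week HFD and at 41.9, 33.9 and 27.4 CPM in the low weight gainers. The groups did not overlap. Its log2 fold change was 1.84 (SE 0.31, edgeR adjusted p 0.00156). Mcm7 (chr5:138164583-138172422, minus strand) was at 26.1, 21.7, 35.4, 11.7, 16.5, 21.8 and 24.9 CPM in HFD and at 49.7, 39.4 and 61.8 CPM in the low weight gainers, also without overlap (1.11, SE 0.26, adjusted p 0.00758). Mcm7 lost its call without low weight gainer replicate 23 (0.94, edgeR adjusted p 0.0753), and Mcm2 kept its own without any single library. The other helicase genes did not pass. Mcm3 (-0.06), Mcm4 (0.08), Mcm5 (0.24) and Mcm6 (0.24) had edgeR adjusted p of 0.913, 0.867, 0.703 and 0.423.

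Cenpe (chr3:135212563-135273540, plus strand) was at 98.7, 60.4, 78.1, 84.4, 135, 101 and 97.4 CPM in 16-week HFD and at 36.2, 28.5 and 36.2 CPM in the low weight gainers. All 3 lay below the lowest HFD library. The log2 fold change was -1.50 (SE 0.24, edgeR adjusted p 0.0012). Top2a (chr11:98992943-99024189, minus strand) was at 99.3, 95.1, 145, 130, 154, 141 and 167 CPM in HFD and at 69.8, 55.4 and 50.6 CPM in the low weight gainers, without overlap (-1.22, SE 0.23, adjusted p 0.00261). Kif23 (chr9:61917280-61946799, minus strand), a kinesin of the central spindle, was at 13.7, 22.1 and 30.3 CPM as the lowest, the median and the highest HFD value and at 9.91, 13.6 and 11.5 CPM (-0.83, SE 0.29, adjusted p 0.0468). Nusap1 (chr2:119618298-119651244, plus strand) was at 36.8, 64.2 and 67.8 CPM in HFD and at 30.4, 33.6 and 42.2 CPM (-0.80, SE 0.23, edgeR adjusted p 0.0222), and its groups overlapped through HFD replicate 6. Without any 1 of the low weight gainer libraries, the calls of Nusap1 and Kif23 were lost, with adjusted p of 0.0525 to 0.109 for Nusap1 and 0.0779 to 0.187 for Kif23. The call of Kif23 was also lost without HFD replicate 6, 11, 14 or 16.

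The cyclins and kinases that accompany these genes in mitosis did not pass. Ccnb1 was at 49.6 to 133 CPM in HFD and 74.0 to 184 CPM in the low weight gainers (0.36, edgeR adjusted p 0.392), and Plk1 at 2.00 to 22.6 and 16.0 to 29.2 CPM (1.33, SE 0.47, adjusted p 0.0548), the second most positive change. Cdk1 was at 52.3 to 120.0 and 55.3 to 71.7 CPM (-0.54, adjusted p 0.0994), Mki67 at 27.8 to 58.5 and 25.3 to 33.5 CPM (-0.68, adjusted p 0.0606) and Ccna2 at 24.5 to 53.7 and 31.0 to 39.7 CPM (-0.24, edgeR adjusted p 0.496). In S phase roles, Rrm2 (0.21), Tyms (-0.38), Pcna (-0.25), Cdk2 (0.44), Ccne2 (-0.68) and Ccne1 (0.42) did not pass, with edgeR adjusted p of 0.615, 0.155, 0.478, 0.104, 0.0867 and 0.595. Rrm2 was at 105 to 138 CPM in the low weight gainers and Tyms at 68.0 to 90.5 CPM. Cdc6 had 20 counts in HFD and 10 in the low weight gainers (exact permutation p = 0.933, two-sided, over 120 splits). In all, 3 members were higher (Mcm2, Mcm7 and Cdt1) and 3 lower (Cenpe, Top2a and Kif23) without overlap, against 11.5% and 8.83% of all entries (20.4% in either direction).

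In 16-week HFD against CD and in the low weight gainers against 16-week HFD, the members' log2 fold changes moved with transcript base composition. Across the 39 tested members, Pearson's r between the log2 fold change and the GC content of the longest coding transcript was -0.75 in 16-week HFD against CD and 0.68 in the low weight gainers against 16-week HFD. Over all matched entries it was -0.44 and 0.51. In the other comparisons the members' r was 0.287 in 16 L, -0.099 at 4 weeks, 0.252 in the low weight gainers against 16-week CD and -0.407 in the interaction. With transcript length, the members' r was 0.3 in 16-week HFD against CD, and -0.141 over all entries. In the low weight gainers against 16-week HFD it was -0.468, and -0.0883 over all entries. These are descriptions across genes that share the same libraries, and genes are not independent replicates. The transcripts of Mcm2 and Mcm7 have 55.5% and 53.4% GC, and those of Cenpe, Top2a, Nusap1 and Kif23 have 42.9%, 43.4%, 41.8% and 46.3%, where the median over all matched entries was 49.0%. With a GC offset added to the fit after the data were seen, where 12.2% of all entries passed, Mcm2 (1.44, edgeR adjusted p 0.0105), Mcm7 (0.85, adjusted p 0.031), Cenpe (-1.14, adjusted p 0.0103) and Top2a (-0.88, adjusted p 0.023) passed, while Nusap1 (-0.37, adjusted p 0.283) and Kif23 (-0.66, adjusted p 0.128) did not.

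**Figure D4:**
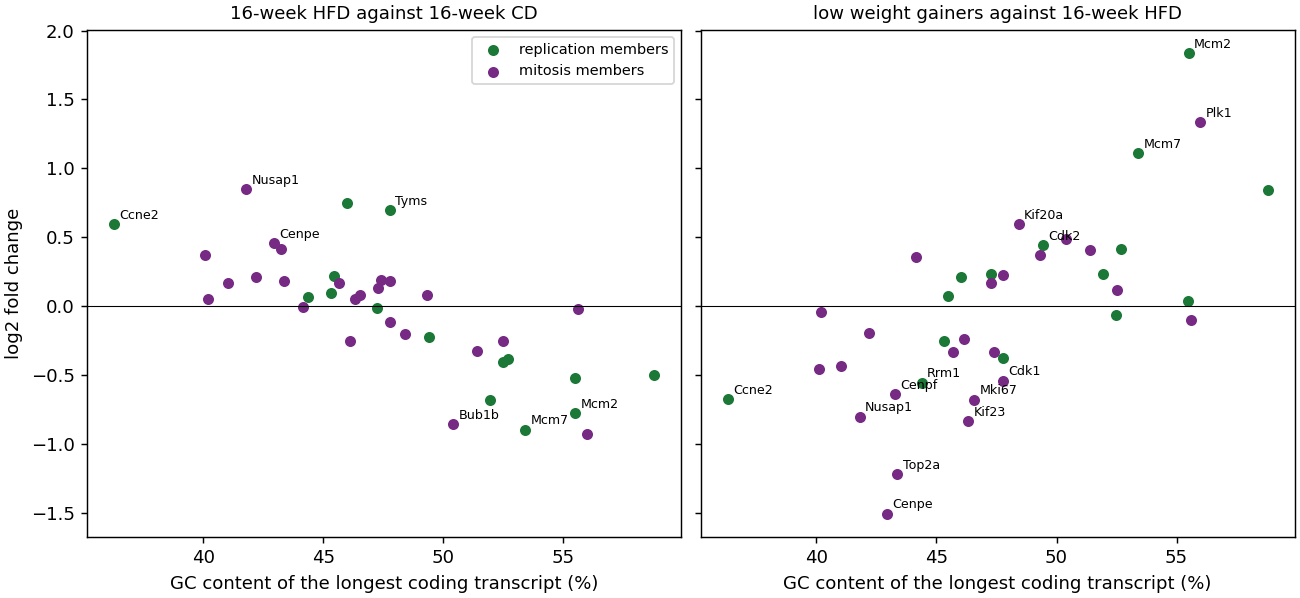
Log2 fold change (vertical axis) against the GC content of the longest coding transcript in percent (horizontal axis) for the 39 tested members, in 16-week HFD against 16-week CD (left) and in the low weight gainers against 16-week HFD (right). Named members had an unadjusted p under 0.05, and r was -0.75 on the left and 0.68 on the right.

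The surrounding lists held calls in both directions in the low weight gainers, to be read against 10.8% higher and 9.93% lower of all entries. Of 53 other spindle, checkpoint and APC genes, 5 were higher and 8 lower than in 16-week HFD. They included Fzr1, the APC activator of late mitosis and G1 (1.72, edgeR adjusted p 0.0012), the APC subunit gene Anapc2 (0.95, adjusted p 0.00359) and the condensin gene Smc2 (-1.0, adjusted p 0.00323). Of 42 fork and licensing genes, 2 were higher and 4 lower, including the polymerase alpha gene Pola1 (-1.30, edgeR adjusted p 0.00842), the flap endonuclease gene Fen1 (1.09, adjusted p 0.011) and Rpa3 of the single-strand binding complex (-1.08, adjusted p 0.0135). Ccnd3 was at 4.34 to 15.2 CPM in HFD and 21.3, 22.1 and 25.0 CPM in the low weight gainers, without overlap (1.14, edgeR adjusted p 0.012), and was the 1 of 15 G1 genes that passed. Of 17 pocket and transcription factor genes, E2f4 passed (1.09, adjusted p 0.0338). Cdkn1b was at 1821 to 2999 CPM in the low weight gainers (-0.49, edgeR adjusted p 0.562), Cdkn1a at 306 to 406 CPM (-0.45, adjusted p 0.204), Ccnd2 at 87.1 to 147 CPM (-0.10, adjusted p 0.792) and Rb1 at 19.3 to 41.5 CPM (-0.06, adjusted p 0.894). Ccnd1 was at 1.83 to 3.47 CPM (-0.01, adjusted p 0.99) and Cdkn1c at no more than 0.261 CPM. The cumulus expansion markers, of which 3 of 5 tested were lower (Vcan, Ptgs2 and Btc), summed to 1068 to 1233 CPM in the low weight gainers and 1143 to 3764 CPM in HFD, and their part in the members' changes was not tested.

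Against 16-week CD, the low weight gainers had 0 of 39 members past the threshold in edgeR, where 0.00861% of the 11620 entries passed. At an unadjusted p of 0.05, 1 member was higher and 2 were lower, against 4.1% and 7.08% of all entries, and DESeq2 and limma-voom each called 2 members, where they called 2.33% and 1.69% of all entries. Mcm2, Cenpe and Top2a were again at the extremes, in a comparison that shares the low weight gainer libraries with the preceding one. Mcm2 was at 13.9, 14.9, 21.2, 17.2, 17.1 and 12.2 CPM in 16-week CD, below all 3 low weight gainers (1.08, SE 0.27, edgeR adjusted p 0.257). Cenpe was at 44.2, 64.7, 64.9, 70.2, 96.4 and 68.7 CPM in CD, above all 3 (-1.03, SE 0.28, adjusted p 0.257). These 2 did not overlap, 1 higher and 1 lower, against 3.61% and 3.92% of all entries (7.52% in either direction). Top2a (-1.0, SE 0.37, adjusted p 0.37) and Rrm2 (0.98, SE 0.49, edgeR adjusted p 0.49) overlapped.

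Of the other members, Mki67 (-0.57), Ccna2 (-0.46) and Cdk1 (-0.34) were below 0 and Ccnb1 (0.38), Tyms (0.34), Mcm6 (0.24) and Cdk2 (0.23) above it, with edgeR adjusted p of 0.486 to 0.846. Pcna (-0.13), Ccne2 (-0.06) and Ccne1 (0.04) were near 0. Cdc6 had 23 and 10 counts (exact permutation p = 0.833, two-sided, over 84 splits). With CD replicates 1 and 2 left out, 0 members passed, where 0.0271% of all entries did. None of the surrounding genes passed in edgeR, with 0 of 15 G1, 0 of 18 pocket and transcription factor, 0 of 43 fork and 0 of 54 spindle genes. At an unadjusted p of 0.05 there were 0, 1, 2 and 3, against 11.2% of all entries in either direction. Cdkn1b (0.32), Cdkn1a (-0.09), Ccnd1 (0.43), Ccnd2 (0.14), Ccnd3 (-0.18) and Rb1 (-0.81) had edgeR adjusted p of 0.519 to 0.96.

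Whether the diet effect differed between the durations was tested as an interaction, the log2 fold change of HFD against CD at 16 weeks minus that at 4 weeks, over the 23 libraries of these 4 groups. Of 39 members, 1 was lower by edgeR's quasi-likelihood test at an adjusted p of 0.05 and none higher, where 3.66% of the 12235 entries passed, 1.74% higher and 1.92% lower. It was Bub1b, which encodes the checkpoint kinase BUBR1. At an unadjusted p of 0.05, 12 members were lower (4 replication and 8 mitosis members) and 0 higher, against 14% and 9.36% of all entries. The median was -0.75 for both the replication and the mitosis members, against -0.09 over all entries, and 8 of 39 were above 0, against 46.1% of all entries. DESeq2 called 3 members, all lower, where it called 9.52% of all entries, and limma-voom 12, all lower and without Bub1b, where it called 19.2%.

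Bub1b (chr2:118598211-118641591, plus strand) was at 11.8, 3.58, 14.5, 16.1 and 29.0 CPM in 4-week CD and at 22.9, 30.0, 68.0, 24.4 and 31.4 CPM in 4-week HFD. It was at 63.1, 63.6, 24.7, 24.9, 22.4 and 17.1 CPM in 16-week CD and at 18.2, 22.7, 29.0, 9.76, 17.5, 19.1 and 25.4 CPM in 16-week HFD. The high values were those of 4-week HFD replicate 5 and of 16-week CD replicates 1 and 2, all libraries that stood apart. The interaction was -1.93 (SE 0.54, edgeR adjusted p 0.0458), from 1.18 at 4 weeks (adjusted p 0.0951) and -0.85 at 16 weeks (adjusted p 0.136). It was -1.30 (adjusted p 0.16) without the 2 CD libraries and -1.54 (adjusted p 0.107) without 4-week HFD replicate 5, and the call held in 9 of 23 fits that left out 1 library. Without 4-week CD replicate 11, 7 of 39 members passed, all lower, including Bub1b, Ccnb1, Cdk1, Cdc20 and Mcm4, where 9.73% of all entries passed, 5.78% lower.

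Of the other mitosis members, Plk1 (-1.71, SE 0.68, edgeR adjusted p 0.13) and Ccnb1 (-1.70, SE 0.55, adjusted p 0.0684) had the next most negative interactions, followed by Cdc20 (-1.33) and Cdk1 (-1.23, adjusted p 0.15). Nusap1 (0.76, edgeR adjusted p 0.296) and Cenpe (0.56, adjusted p 0.434) had the most positive ones. Mki67 (0.44), Top2a (-0.12) and Ccna2 (-0.03) had adjusted p of 0.454, 0.899 and 0.968. Among the replication members, Mcm4 (-1.21, edgeR adjusted p 0.0833) and Mcm2 (-1.12, adjusted p 0.151) were lowest with Cdt1 (-1.24, adjusted p 0.27), while Pcna (-0.63), Mcm6 (-0.36), Rrm2 (-0.32) and Cdk2 (-0.25) were nearer 0 and Tyms (0.52) and Ccne2 (0.44) above it. Ccne1 was at -0.78 (edgeR adjusted p 0.525). Of 55 other spindle, checkpoint and APC genes, 3 were lower and none higher, where 1.92% of all entries were lower and 1.74% higher. They were Fzr1 (-2.27, edgeR adjusted p 0.0409), Anapc7 (-1.34, adjusted p 0.0469) and the separase gene Espl1 (-3.52, adjusted p 0.0492). None of the 55 passed without 4-week HFD replicate 5 (-2.17, -1.15 and -3.26 for these 3) or without 16-week CD replicates 1 and 2 (-0.96, -1.39 and -1.44), where 0.556% and 0.725% of all entries passed. In edgeR 0 of 15 G1, 0 of 20 pocket and transcription factor and 0 of 43 fork genes passed. At an unadjusted p of 0.05 there were 0, 4 and 3, against 23.4% of all entries in either direction. Cdkn1b (1.03), Cdkn1a (0.44), Ccnd1 (0.24), Ccnd2 (0.68), Ccnd3 (-0.78) and Rb1 (-0.67) had edgeR adjusted p of 0.288 to 0.877.

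Across the libraries, the mitosis members varied together more than the replication members did. With group means removed, the median Pearson r of log2 levels over the 34 libraries was 0.363 for the 276 pairs of mitosis members, of which 240 were above 0, and 0.101 for the 120 pairs of replication members, of which 77 were above 0. It was 0.138 for the 384 pairs between the lists. The replication list holds members with few counts, with mean levels of 0.676 CPM for Cdc6, 2.69 for Ccne1 and 5.6 for Cdt1. The lowest mean of a mitosis member was 8.69 CPM, in Aurkb. The part of counting error in the lower r was not tested. The highest pairs were Top2a with the checkpoint kinase gene Bub1 (0.816), Mki67 with Kif23 (0.788) and Mki67 with Top2a (0.781). Ccnb1 with Cdc20 (0.765), Cenpe with Cenpf (0.761) and Ccnb1 with Cdk1 (0.755) were also among the 10 highest. The lowest pairs were Ccne2 with Mcm7 (-0.653) and Mcm7 with Tyms (-0.633). The mitosis sum had r of 0.546 with the cumulus expansion markers, -0.550 with the oviduct markers, -0.501 with the red blood cell markers and 0.187 with the log2 total count. These 3 marker sums spread most in 16 L. They ranged there from 42.4 to 957, from 134 to 36760 and from 3.10 to 11270 CPM. Replicate 18 of 16 L held the lowest expansion sum and the highest oviduct sum. The part of that group or library in these r was not tested. All these correlations are descriptions of libraries that share protocol and depth.

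The sums were also read by the side of the first component. The 16 libraries above 0 were all 10 of the 4-week groups, 4 of 5 16 L libraries and 16-week CD replicates 1 and 2, whose TMM factors were 1.37 and 1.33 against 0.761 to 0.989 in the other 4 of that group. Apart from those 2 CD libraries, the libraries above 0 had mitosis sums of 341 to 1103 CPM, and apart from 16 L replicate 18, at 375 CPM, those below 0 had 781 to 1548 CPM. The lowest and the highest sums above 0 outside 16-week CD were both in 16 L, in replicates 21 and 19. The leptin and saline groups also lay apart on this component. The 16 C libraries were at -58.7 to -54.1 and the 16 L libraries other than replicate 18 at 38.6 to 61.2. TMM factors were 0.64 to 0.737 in 16 C and 0.894 to 1.32 in 16 L. The 16-week CD replicates 1 and 2 had mitosis sums of 1106 and 1350.0 CPM, against 1170.0 to 1531 CPM in the rest of their group, and replication sums of 434 and 446 CPM, the 2 lowest of the group, against 483 to 575 CPM. The part of this component in the members' levels was not tested.

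**Figure D5:**
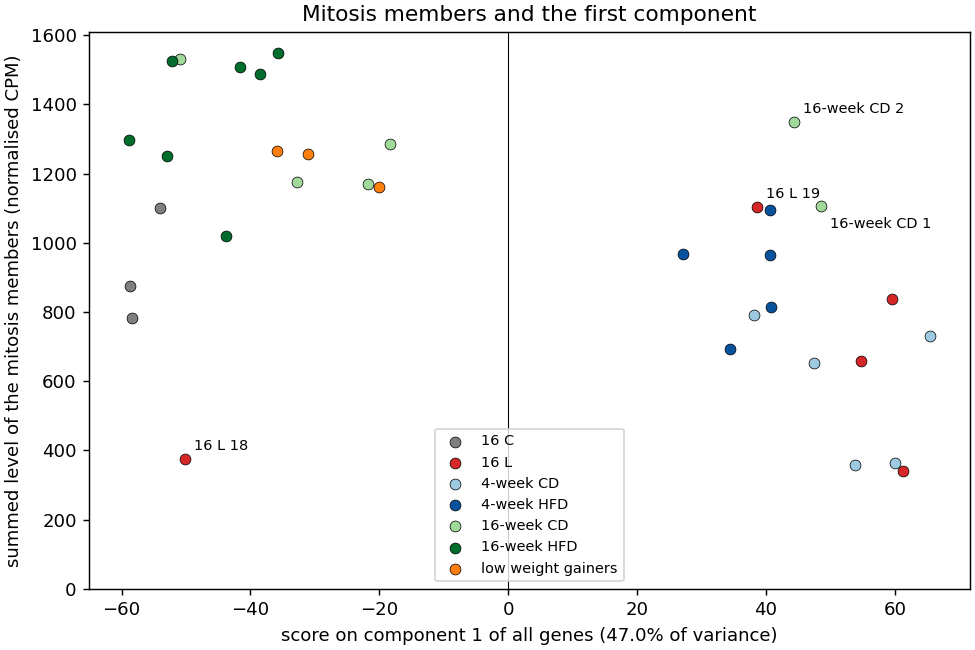
Summed normalised CPM of the 24 mitosis members (vertical axis) against the score on the first principal component of 7065 entries (horizontal axis, 47.0% of the variance), with 1 point per library coloured by group. The 16-week CD replicates 1 and 2 sit among the 4-week libraries on the horizontal axis at 48.5 and 44.3, with sums of 1106 and 1350.0 CPM, and 16 L replicate 18 sits apart from the other 16 L libraries at -50.2.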

How the data were processed

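CC RNA was measured with 1 Smart-seq2 library per mouse. The submitters' notes name Trim Galore 0.4.2, HISAT2 2.0.5 and the mouse build GRCm38, and the counting program is not given in the sources used here. The authors deposited raw counts per gene for 34 libraries of 7 groups in 1 table of 25965 entries (25899 distinct symbols), and only these counts were used. Groups were taken from the labels. The members and lists were chosen with earlier results of these data known. Depth was 1104611 to 13207018 counts per library. Libraries of a group came from separate mice.

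Counts were tested with edgeR 4.0.16 (TMM, filterByExpr, robust quasi-likelihood F-test, two-sided) in R 4.3.3, on the groups of each comparison, with Benjamini-Hochberg adjustment over all entries tested and a threshold of 0.05. The interaction used the 4 diet groups without the low weight gainers. Members that failed the filter were tested with exact permutation tests on log2(RPM + 1). Levels are CPM with TMM factors over all 34 libraries. Transcript length and GC content came from GENCODE M21 and promoters from RefSeq (GRCm38.p6). The fits were tested on simulated counts in which 200 entries per comparison were changed by 3 on the log2 scale. In 16 L against 16 C, 51% of these were recovered, against 85.5% to 97.5% in the other comparisons. Of the calls, 3.78% to 7.07% were false. A member that did not pass in 16 L against 16 C is therefore not shown to be unchanged. Antisense partners cannot be told apart without strand, and Pcna, Tyms, Ccnb1 and Ccnb2 have named pseudogenes that could take or lend reads.

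All 40 members were accounted for. Named in full were members past the threshold, 13 fixed genes (Mki67, Top2a, Cdk1, Ccnb1, Ccna2, Mcm2, Mcm6, Pcna, Rrm2, Tyms, Ccne1, Cdk2 and Ccne2), the 2 most positive and 2 most negative tested members of each comparison, Ccnd1, Ccnd2, Ccnd3, Cdkn1a, Cdkn1b, Cdkn1c and Rb1, up to 3 genes of each other cell cycle list past the threshold, and the 3 highest and 3 lowest members by level. Other genes named were chosen after their values were seen. The lists were the 2 member lists, 4 lists of other cell cycle genes and 9 lists of oocyte, granulosa, cumulus expansion, macrophage and neutrophil, lymphocyte, oviduct, theca and stroma, endothelial and red blood cell markers.

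Alternatives were DESeq2 1.42.0, limma-voom with quality weights (limma 3.58.1), RLE and total-count scaling, no filter, at least 10 counts in every library, 1 fit of all 34 libraries, each library left out in turn and, for the interaction, a replicate block. GC and length offsets and leaving out 16-week CD replicates 1 and 2 together, and the other lists without the libraries that stood apart, were added after seeing the data. Each number marks a mouse of its own, so numbers do not pair libraries.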

Additional observations from a re-analysis of the deposited data

Results flagged for a closer look

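Apart from the interaction of Bub1b given last, the values here are those that stood apart from the rest of their group by Dixon's test at the 95% level. That test marks about 5% of groups by chance, and it marked 11 of 125 groups. In 16 L, replicate 18 had 20.53 CPM of Mcm7, against 42.62 to 51.51 CPM in the other 4, and 71.85 CPM of Tyms, against 24.14 to 30.76 CPM. It also had 36760 CPM of oviduct markers, against 134 to 1930 CPM. Replicate 19 of 16 L had 63.82 CPM of Cdk1, against 8.967 to 16.22 CPM.

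In 4-week HFD, replicate 5 had 68.02 CPM of Bub1b, against 22.87 to 31.37 CPM, and 704.9 CPM of oocyte markers, against 22.56 to 35.29 CPM. The part of the oocyte transcripts in its Bub1b level was not tested. Replicate 14 of the same group had 41.76 CPM of Tyms, against 20.28 to 25.91 CPM. In 4-week CD, replicate 11 had a replication sum of 323.6 CPM, against 227.3 to 251.1 CPM.

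In 16-week CD, replicate 8 had 143.1 CPM of Ccnb1, against 74.34 to 97.02 CPM. In 16-week HFD, replicate 6 had 36.79 CPM of Nusap1, against 58.82 to 67.82 CPM, and replicate 10 had 683.1 CPM of oviduct markers, against 196.3 to 303.1 CPM. The diet effect on Bub1b differed between 16 and 4 weeks by -1.93 on the log2 scale (edgeR adjusted p 0.0458).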

How the results depend on the processing

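Of 1834 alternative values of the members named, 1699 had the same call, 74 lost and 61 gained one, and none of the 11 called members changed sign. Over all members tested, 303 of 5036 alternative values changed sign without passing the threshold. The counts of called members moved more. DESeq2 called 7 members in 16 L against 16 C, 10 at 4 weeks, 3 at 16 weeks, 2 in the low weight gainers against 16-week CD and 3 in the interaction. Of all entries it called 23.7%, 11.2%, 9.72%, 2.33% and 9.52%. Limma-voom called 18, 22, 0, 2 and 12 in the same comparisons, where it called 64.4%, 34.5%, 0.046%, 1.69% and 19.2% of all entries. In the low weight gainers against 16-week HFD it called 12, where it called 29.2% of all entries. With total counts only, 4 members passed in 16 L, 3 at 16 weeks and 3 in the interaction, where 34.4%, 15.2% and 7.14% of all entries did. In 16 L, 1 member passed with no filter (Rrm2), 1 with at least 10 counts in every library (Mcm7) and 1 with the GC offset (Rrm2), where 2.66%, 11.9% and 5.24% of all entries did. With all 34 libraries in 1 fit, 8 passed in 16 L, 0 at 4 weeks, 1 at 16 weeks, 3 in the low weight gainers against 16-week HFD and 0 in the interaction, where 33.1%, 0.521%, 9.5%, 3.68% and 1.19% of all entries passed. In the interaction, 2 passed with the GC offset (6.87% of all entries) and 0 without 16-week CD replicates 1 and 2 (0.725%). With the length offset, 8 members passed in the low weight gainers against 16-week HFD, where 17.3% of all entries did. The cause of these differences was not tested.

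Leaving out 1 library at a time gave 0 to 9 called members in 16 L. There were 9 without 16 L replicate 18, where 41.8% of all entries passed, and 7 without replicate 19, where 14.4% did. There were 0 without each 16 C library or 16 L replicate 20, 21 or 23, where 0.235% to 1.28% of all entries passed. At 4 weeks the range was 0 to 11 (11 without 4-week CD replicate 11, 14.4% of all entries). At 16 weeks it was 0 to 4 (4 without CD replicate 9, 20.5%). In the low weight gainers against 16-week HFD it was 3 to 9 (3 without low weight gainer replicate 23, 5.19%, and 9 without HFD replicate 15, 18.5%). Against 16-week CD the low weight gainers had 0 in each fit, where at most 0.00884% of all entries passed. The interaction had 0 to 7 (7 without 4-week CD replicate 11, 9.73%). With the replicate block, 0 members passed in the interaction, where 0.0817% of all entries did and Bub1b was at -3.50 (edgeR adjusted p 0.0924). Same-numbered libraries had correlations of their deviations of -0.279 to 0.207. Each number marks a separate mouse, so the replicate block was not a paired analysis. The groups of the other comparisons share no replicate numbers, and no block was fitted there. Cdc6 had too few counts for the fit in every comparison.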
